A study of Homo sapiens with 12 samples.

Results

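The Fanconi anaemia core and crosslink bypass genes are a set of 10 genes: FANCA, FANCC, FANCD2, FANCE, FANCF, FANCG, FANCI, FANCL, UBE2T and REV3L. Their members were taken as every probe that the annotation of the array platform pairs with one of these symbols, whatever its values. The annotation listed 1 probe each for 7 of the 10 genes. FANCA, FANCD2 and FANCF had no listed probe and were not analysed here. The FANCC probe was detected on 2 of the 12 arrays and was not tested. The 6 tested members, FANCE, FANCG, FANCI, FANCL, UBE2T and REV3L, stand among 13830 tested probes of 48802 in the table. A probe counted as detected on an array at a detection p-value under 0.01, and was tested when detected on at least 3 arrays. The arrays measured cytoplasmic RNA of Cal51, an established human breast carcinoma cell line, after digitonin opened the plasma membrane. There were 4 groups of 3 arrays, which the labels number as experiments 1 to 3. They were IPMK siRNA with mitomycin C (MMC), IPMK siRNA untreated, control siRNA with MMC, and control siRNA untreated. All cells were harvested 72 hours after transfection, and MMC was present for the last 24 hours. The design text gives the comparison of cytoplasmic RNAs after IPMK depletion as the aim. Cells given the IPMK siRNA are called siIPMK cells here, and those given the control siRNA control cells. A single cell line was used, and the labels do not say whether the experiments were separate cultures, so p-values measure the spread between these arrays only.

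The Fanconi anaemia pathway repairs interstrand crosslinks, lesions that join both strands of DNA and block replication forks. A core complex of several FANC proteins, in which FANCL is the ubiquitin ligase, acts with the conjugating enzyme UBE2T to attach ubiquitin to the pair FANCI and FANCD2. The marked pair recruits nucleases that cut the crosslink out of one strand. Polymerase zeta, whose catalytic subunit is REV3L, then extends DNA past the remnant, and homologous recombination mends the break. MMC is a crosslinking drug to which cells lacking this pathway are very sensitive. IPMK, inositol polyphosphate multikinase, makes higher inositol phosphates and the lipid PIP3 and has been tied to the export of messenger RNAs from the nucleus.

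No listed probe was named IPMK, so its depletion could not be read from these arrays. MMC was checked on CDKN1A, a p53 target that restrains the cell cycle. Its brighter probe (ILMN_1784602) averaged 14.10 ± 0.11 log2 units with MMC and 12.13 ± 0.04 log2 units untreated in control cells (SD, n = 3 each), a rise of 1.97 ± 0.15 (SE, adjusted p = 4.27e-06). In siIPMK cells it averaged 14.98 ± 0.10 with MMC and 14.05 ± 0.43 untreated, a rise of 0.93 ± 0.15 (adjusted p = 0.0172). The difference between these rises, siIPMK minus control, was -1.04 ± 0.21 and did not pass (adjusted p = 0.302). The other CDKN1A probe (ILMN_1787212) was not well above background on any untreated control array, and in siIPMK cells it rose with MMC by 1.42 ± 0.21 (adjusted p = 0.00812). MDM2, the ubiquitin ligase that p53 induces to limit itself, was detected on 3 of 3 arrays of siIPMK cells with MMC, 2 of untreated siIPMK cells, 2 of control cells with MMC and 0 of untreated control cells, so no size is given for it. The epithelial markers KRT8, KRT18, KRT19, EPCAM and CD24 were detected on 12 arrays and MUC1 on 10. The stromal, endothelial and B cell markers COL1A1, VWF and MS4A1 were detected on 1 array each, while COL1A2 was detected on 12, PECAM1 on 11 and CD68 on 11. Between 13067 and 13458 probes were detected per siIPMK array and between 12122 and 12687 per control array, so these ranges did not overlap. Arrays carry no read depth, and precision is limited by their number. Each tested member was read by 12 to 41 beads per array, with a bead standard error of 3.09% to 9.73% of the intensity. The 2 siIPMK arrays of experiment 1 stood apart. On the first principal component of the tested probes, which held 66.5% of the variance, they scored -14.2 with MMC and -7.90 untreated, between the other siIPMK arrays (-46.4 to -38.9) and the control arrays (27.6 to 36.4).

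The promoters of the 5 tested members with a window in the RefSeq promoter table (build GRCh38.p14) are shown because 4 of these transcripts were lower and REV3L was higher in siIPMK cells with MMC. The table held 11 windows for 9 of the 10 members, with FANCI as the other member. Each window spans 300 bases, 250 before and 50 after the start site, and is printed 5′ to 3′ on the strand of the gene. Capitals mark matches, on either strand, to 4 motifs searched: CCAAT, the box bound by NF-Y, TTTCCCGC and TTTGGCGC, letters of E2F sites, and TTTGAA, the core of the cell cycle homology region. No 2 matches overlapped.
FANCE (chr6:35452088-35452387, plus strand): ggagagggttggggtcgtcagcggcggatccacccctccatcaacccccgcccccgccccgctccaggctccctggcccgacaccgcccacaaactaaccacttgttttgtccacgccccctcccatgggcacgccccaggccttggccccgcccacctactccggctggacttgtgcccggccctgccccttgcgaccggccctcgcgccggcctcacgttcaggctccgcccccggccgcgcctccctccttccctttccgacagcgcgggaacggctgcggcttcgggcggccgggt
FANCG (chr9:35079893-35080192, minus strand): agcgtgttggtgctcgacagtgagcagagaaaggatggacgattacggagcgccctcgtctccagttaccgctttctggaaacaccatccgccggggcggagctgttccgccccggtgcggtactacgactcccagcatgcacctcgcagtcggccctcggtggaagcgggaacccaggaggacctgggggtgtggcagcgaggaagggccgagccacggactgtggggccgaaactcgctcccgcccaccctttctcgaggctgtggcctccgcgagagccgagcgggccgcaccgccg
FANCL (chr2:58241276-58241575, minus strand): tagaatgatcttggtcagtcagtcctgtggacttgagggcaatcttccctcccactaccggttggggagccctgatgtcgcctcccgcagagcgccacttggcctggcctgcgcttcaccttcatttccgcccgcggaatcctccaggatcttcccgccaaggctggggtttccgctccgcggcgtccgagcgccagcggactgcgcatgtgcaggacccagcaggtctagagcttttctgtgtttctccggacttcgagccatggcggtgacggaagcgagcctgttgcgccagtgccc
UBE2T (chr1:202341887-202342186, minus strand): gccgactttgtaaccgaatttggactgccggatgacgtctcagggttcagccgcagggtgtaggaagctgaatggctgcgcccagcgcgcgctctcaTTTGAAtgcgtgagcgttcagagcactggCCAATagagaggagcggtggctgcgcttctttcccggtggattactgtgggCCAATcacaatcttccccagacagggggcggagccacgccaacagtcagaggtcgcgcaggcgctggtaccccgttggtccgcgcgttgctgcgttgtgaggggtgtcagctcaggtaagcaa
REV3L (chr6:111483169-111483468, minus strand): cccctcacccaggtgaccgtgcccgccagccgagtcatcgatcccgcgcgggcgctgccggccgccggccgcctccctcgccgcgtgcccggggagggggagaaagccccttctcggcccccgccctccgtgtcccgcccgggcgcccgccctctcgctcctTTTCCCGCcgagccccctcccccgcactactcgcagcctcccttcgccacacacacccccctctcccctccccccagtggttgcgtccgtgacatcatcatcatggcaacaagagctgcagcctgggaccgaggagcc
The UBE2T window held CCAAT at -124 and -73 and TTTGAA at -153, counted in bases from the start site. The REV3L window held TTTCCCGC at -88, and the second REV3L window of the table held none of the 4 motifs. The windows of FANCE, FANCG and FANCL held none of them. Among members that were not tested, FANCC held TTTCCCGC at -46 and TTTGAA at -248 in its second window, FANCD2 held TTTCCCGC on the opposite strand at -2, FANCA held CCAAT at -33, and FANCF held CCAAT at -92 and -52. Of all 35116 windows in the table, 34.614% held CCAAT, 1.629% held TTTCCCGC, 0.652% held TTTGGCGC and 15.161% held TTTGAA. The GC content was 73.7% for FANCE, 67.7% for FANCG, 63.0% for FANCL, 60.7% for UBE2T and 74.0% for this REV3L window, against a median of 58.7% over all windows. A match describes letters in a window, not a bound site.

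The first question was how the members' transcripts differed between siIPMK and control cells without MMC. Transcripts of the core complex members FANCE, FANCG and FANCL and of the complex's substrate FANCI fell in siIPMK cells, REV3L rose, and UBE2T did not pass the test. FANCE, which links the core complex to FANCD2, read 8.99, 8.49 and 8.63 log2 units in experiments 1, 2 and 3 of untreated siIPMK cells, against 9.73, 9.53 and 9.70 in untreated control cells. The groups did not overlap, and FANCE fell by 0.95 ± 0.14 on the log2 scale (SE, 3 arrays per group, adjusted p = 0.000214), which is 1.93-fold lower. FANCG, a scaffold that holds core complex proteins together, read 10.46, 9.99 and 9.99 in untreated siIPMK cells and 11.08, 11.03 and 11.29 in untreated control cells. All 3 siIPMK arrays lay below all 3 control arrays, a fall of 0.99 ± 0.15 (adjusted p = 0.000198), or 1.98-fold. FANCL, the ligase subunit, read 9.59, 9.10 and 9.20 in untreated siIPMK cells and 9.96, 9.72 and 9.65 in untreated control cells. Its groups were separate by a narrow margin, since the highest siIPMK array lay just under the lowest control array, and FANCL fell by 0.48 ± 0.15 (adjusted p = 0.0179), or 1.39-fold. The call on FANCL did not hold without the untreated siIPMK array of experiment 2 (a change of -0.38, adjusted p = 0.0917) or of experiment 3 (-0.43, 0.0726), without the untreated control array of experiment 1 (-0.39, 0.0764), or with median scaling over all probes (-0.35, 0.104). In these bulk samples, fewer cells that express a transcript and less of it in the cytoplasm per cell cannot be told apart. The arrays held no nuclear or total RNA. A lower total of a transcript and a smaller share of it in the cytoplasm therefore cannot be told apart either.

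At the ubiquitin step untreated, FANCI fell and UBE2T did not pass. FANCI, the partner of FANCD2, read 8.48, 8.01 and 8.02 in untreated siIPMK cells and 9.13, 9.30 and 9.37 in untreated control cells. The groups did not overlap, and FANCI fell by 1.10 ± 0.21 (adjusted p = 0.00105), or 2.14-fold, which placed it 316th from the bottom of 13830 probes. UBE2T, the enzyme acting with FANCL, read 11.56, 11.02 and 11.02 in untreated siIPMK cells and 11.49, 11.60 and 11.55 in untreated control cells. The siIPMK array of experiment 1 lay among the control arrays while the other two lay below them. The change of -0.34 ± 0.14 did not pass (adjusted p = 0.0736, 95% interval -0.65 to -0.03). Without the untreated siIPMK array of experiment 1 UBE2T passed at -0.52 (adjusted p = 0.00376), and without experiment 1 in both siIPMK groups at the same change (0.000322). It passed too with median scaling (-0.45, 0.022) and without the siIPMK array of experiment 1 that had MMC (-0.34, 0.0437). That array enters the untreated comparison only through the estimate of the spread.

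REV3L differed in the other direction. It read 7.66, 8.37 and 8.36 in untreated siIPMK cells, against 7.01, 7.14 and 7.45 in untreated control cells. All 3 siIPMK arrays lay above all 3 control arrays, although the siIPMK array of experiment 1 was much nearer the controls than the other two. REV3L rose by 0.93 ± 0.19 (adjusted p = 0.0017), or 1.90-fold, at percentile 94.3 of all tested probes. In the authors' processed values the rise was 0.55, and without experiment 1 in both siIPMK groups it was 1.16.

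**Figure D1:**
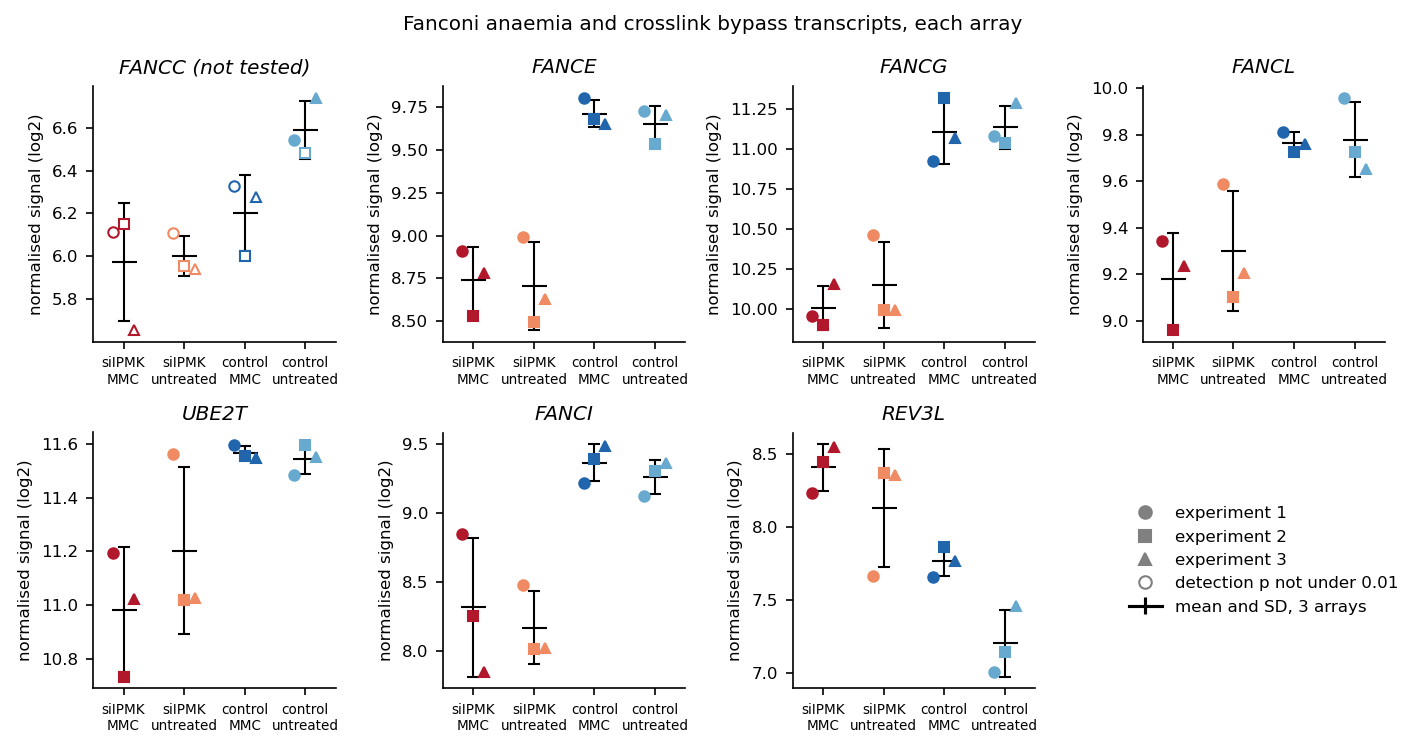
Log2 signal after background correction and quantile normalization for the 6 tested members and untested FANCC, by group. Points are single arrays, shaped by experiment, and open where the detection p was not under 0.01. Bars give the group mean and SD. FANCE, FANCG, FANCI and FANCL lie lower in siIPMK cells than in control cells in both treatments, REV3L lies higher, and the untreated siIPMK array of experiment 1 lies among the control arrays for UBE2T.

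In all, 5 of the 6 tested members passed in the untreated comparison, 4 as falls and 1 as a rise. Of all 13830 probes, 38.9% passed, 19.2% as falls and 19.7% as rises. The groups did not overlap for 5 members, as for 50.9% of all probes. The median change of the 6 members was -0.71, against -0.01 over all probes. The balance of rises among all calls depended on the scaling: it was 50.5% here, 43.2% with median scaling and 70.1% with median scaling over all probes, which shifted the median of all probes to 0.12. Under that last scaling 4 of the 6 members passed, beside 35.8% of all probes, and the median of the 6 members was -0.58.

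The same comparison under MMC set other arrays against each other, within the same fit and with the spread estimated over all groups. Same-numbered arrays of one siRNA deviated together (r from 0.182 to 0.689 across probes), so the 2 depletion comparisons were not independent. FANCE read 8.91, 8.53 and 8.78 in siIPMK cells with MMC and 9.81, 9.68 and 9.65 in control cells with MMC, a fall of 0.97 ± 0.14 (adjusted p = 0.000224). FANCG read 9.95, 9.90 and 10.16 in siIPMK cells and 10.92, 11.32 and 11.07 in control cells, a fall of 1.10 ± 0.15 (adjusted p = 0.000124), or 2.14-fold. In both genes every siIPMK array lay below every control array. FANCL read 9.34, 8.96 and 9.23 in siIPMK cells and 9.81, 9.73 and 9.76 in control cells, a fall of 0.59 ± 0.15 (adjusted p = 0.00577), or 1.502-fold, again with no overlap. FANCI read 8.85, 8.25 and 7.85 in siIPMK cells and 9.22, 9.39 and 9.49 in control cells. Its siIPMK arrays were widely spread but did not reach the controls, and FANCI fell by 1.05 ± 0.21 (adjusted p = 0.00142). UBE2T read 11.19, 10.73 and 11.02 in siIPMK cells and 11.60, 11.55 and 11.55 in control cells. Here its groups did not overlap, and UBE2T fell by 0.59 ± 0.14 (adjusted p = 0.00577). REV3L read 8.23, 8.44 and 8.55 in siIPMK cells and 7.66, 7.86 and 7.77 in control cells, a rise of 0.64 ± 0.19 (adjusted p = 0.0137), or 1.56-fold, with every siIPMK array above every control array. REV3L did not pass without the siIPMK array of experiment 3 that had MMC (0.57, adjusted p = 0.0556), and its rise was 0.42 in the authors' processed values.

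**Figure D2:**
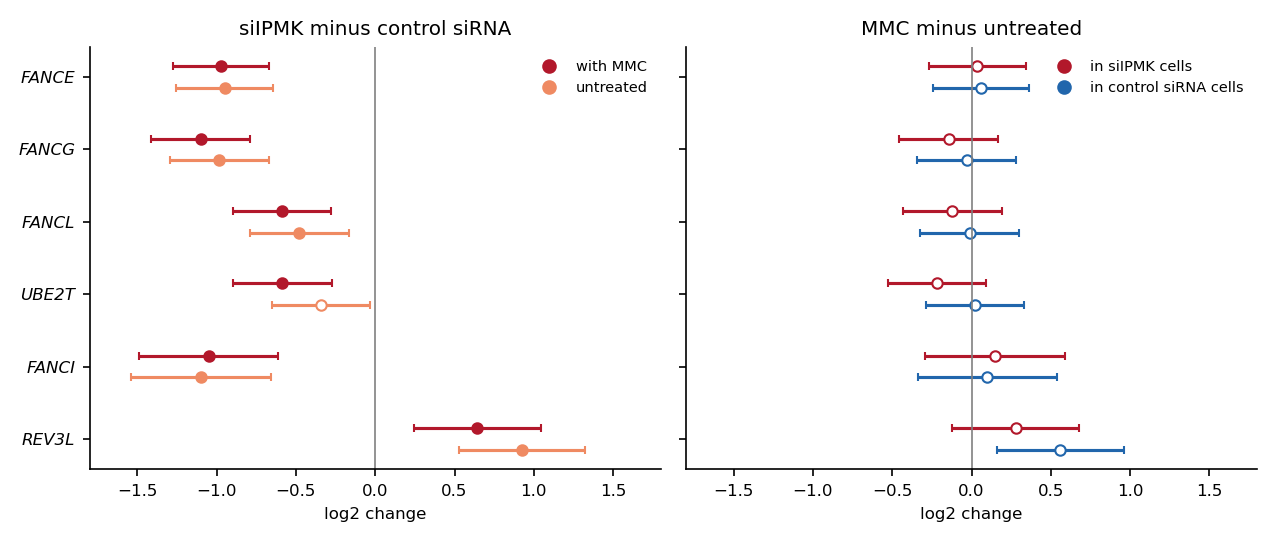
Log2 change of each tested member with its 95% interval in the 4 comparisons of groups, with siIPMK over control cells and MMC over untreated cells, and filled points where the adjusted p passed. The intervals of FANCE, FANCG, FANCI, FANCL and UBE2T lie below 0 and those of REV3L above 0 in both depletion comparisons. The untreated change of UBE2T did not pass on the adjusted p. In the MMC comparisons the interval of REV3L in control cells (0.16 to 0.96) is the only one that leaves out 0.

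With MMC, 6 of 6 tested members passed, 5 as falls and 1 as a rise, with a median change of -0.78 against -0.01 over all probes. Of all 13830 probes 40% passed, 20.3% as falls and 19.7% as rises. The groups did not overlap for 6 members, as for 48.1% of all probes. Rises were 49.2% of all calls, and 69% with median scaling over all probes, which moved the median of all probes to 0.12. Under that scaling 6 members passed, beside 36.1% of all probes. The falls of FANCE, FANCG and FANCI placed them between percentiles 2.28 and 3.68 of all probes in the 2 depletion comparisons. FANCL lay at percentiles 15.8 untreated and 12.2 with MMC, and UBE2T at 23.1 and 12.3.

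**Figure D3:**
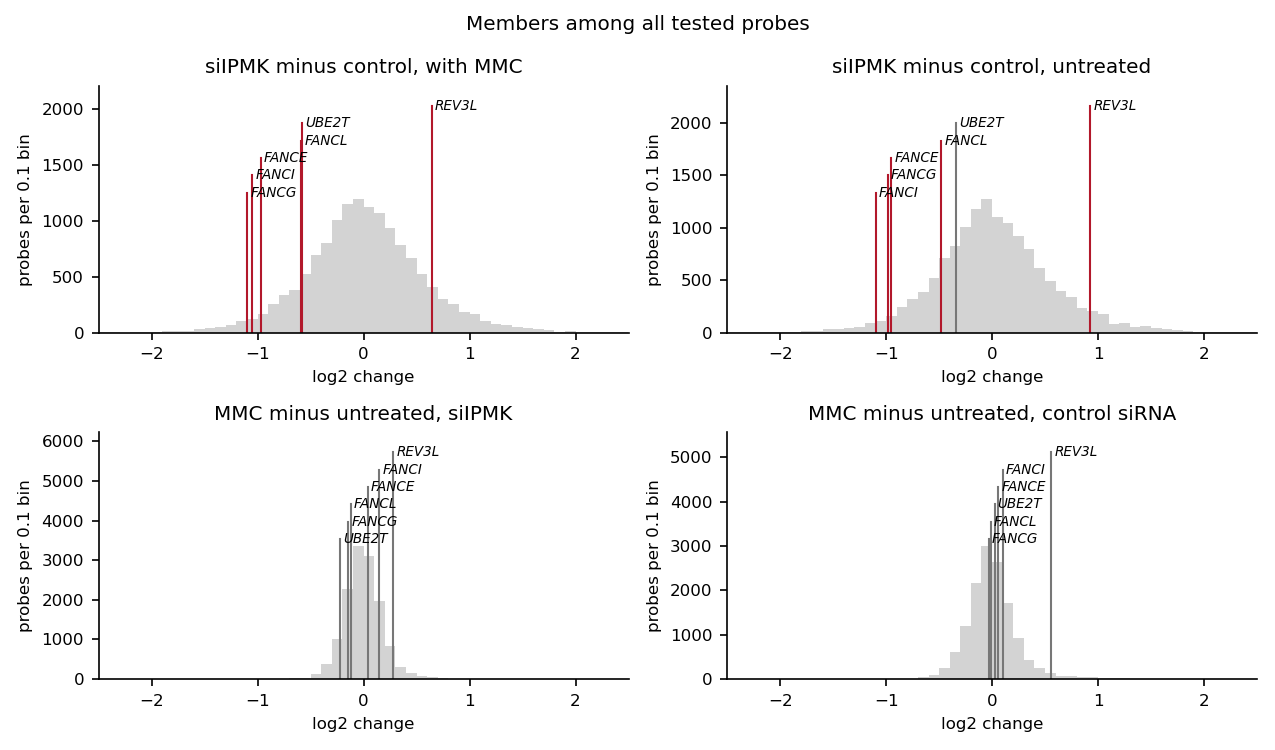
Number of tested probes by log2 change, with the 6 tested members marked. The panels show siIPMK over control cells, with MMC and untreated, and MMC over untreated cells in each siRNA. In both depletion comparisons FANCE, FANCG and FANCI sit in the low tail and REV3L in the upper part. The median of all probes is -0.01 in each of these depletion comparisons.

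The next question was whether MMC changed these transcripts within each siRNA. In control cells 0 of 6 members passed by limma's test without a replicate block, beside 1.74% of all probes. There 1 member had an unadjusted p under 0.05. That member was REV3L, at 7.66, 7.86 and 7.77 log2 units with MMC and 7.01, 7.14 and 7.45 untreated. Its groups did not overlap, which held for 20.6% of all probes, and its change was 0.56 ± 0.19 (unadjusted p = 0.00905, adjusted p = 0.211). REV3L was higher with MMC in 3 of 3 experiments, by 0.65, 0.72 and 0.31. Arrays of the same siRNA and experiment number deviated together, and with these pairs as a replicate block REV3L passed at 0.56 ± 0.13 (adjusted p = 0.00568), as 1235 probes did against 241 without the block. It passed also without experiment 1 in both siIPMK groups (adjusted p = 0.0234). All control arrays stayed in there, so the change was the same and only the spread was estimated anew. Over the alternatives run, the adjusted p of this change ranged from 0.00568 to 0.54. The other 5 members changed by -0.03 to 0.10, with 95% intervals that together span -0.34 to 0.54.

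In siIPMK cells 0 of 6 members passed with MMC, beside 0.311% of all probes, and 0 had an unadjusted p under 0.05. REV3L, at 8.23, 8.44 and 8.55 with MMC and 7.66, 8.37 and 8.36 untreated, changed by 0.28 ± 0.19 (95% interval -0.12 to 0.68), and experiment 1 gave the larger part, with differences of 0.57, 0.07 and 0.19. UBE2T changed by -0.22 ± 0.14 (95% interval -0.53 to 0.09), with differences of -0.37, -0.29 and -0.0032. The pairs as a replicate block brought 342 probes past the threshold against 43, and 0 members. The test of the difference between the MMC changes, siIPMK minus control, gave 0 members, beside 0.00723% of all probes (1 probe). It was -0.28 ± 0.26 for REV3L (95% interval -0.85 to 0.28) and -0.24 ± 0.20 for UBE2T (-0.68 to 0.20). For FANCE it was -0.02 (-0.45 to 0.41), for FANCG -0.12 (-0.56 to 0.33), for FANCI 0.05 (-0.58 to 0.67) and for FANCL -0.11 (-0.55 to 0.33).

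Arrays of the 2 siRNAs that share a number deviated together weakly or not at all (r from -0.0215 to 0.192). The depletion difference is therefore given also within each numbered experiment as a description only. For FANCI it was -0.65, -1.29 and -1.35 in experiments 1, 2 and 3 untreated and -0.37, -1.15 and -1.64 with MMC. UBE2T gave 0.08, -0.58 and -0.53 untreated and -0.40, -0.82 and -0.53 with MMC. REV3L gave 0.65, 1.22 and 0.90 untreated and 0.58, 0.58 and 0.78 with MMC. FANCE ranged from -1.15 to -0.74, FANCG from -1.42 to -0.62 and FANCL from -0.77 to -0.37 over the 6 differences. All differences of these 6 genes had the sign of the fitted change except that of UBE2T in untreated experiment 1. Without experiment 1 in both siIPMK groups 6 members passed in each comparison, but the share of all probes that passed was also larger, at 52.2% in each. The median changes of the 6 members were then -0.86 untreated and -0.87 with MMC.

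**Figure D4:**
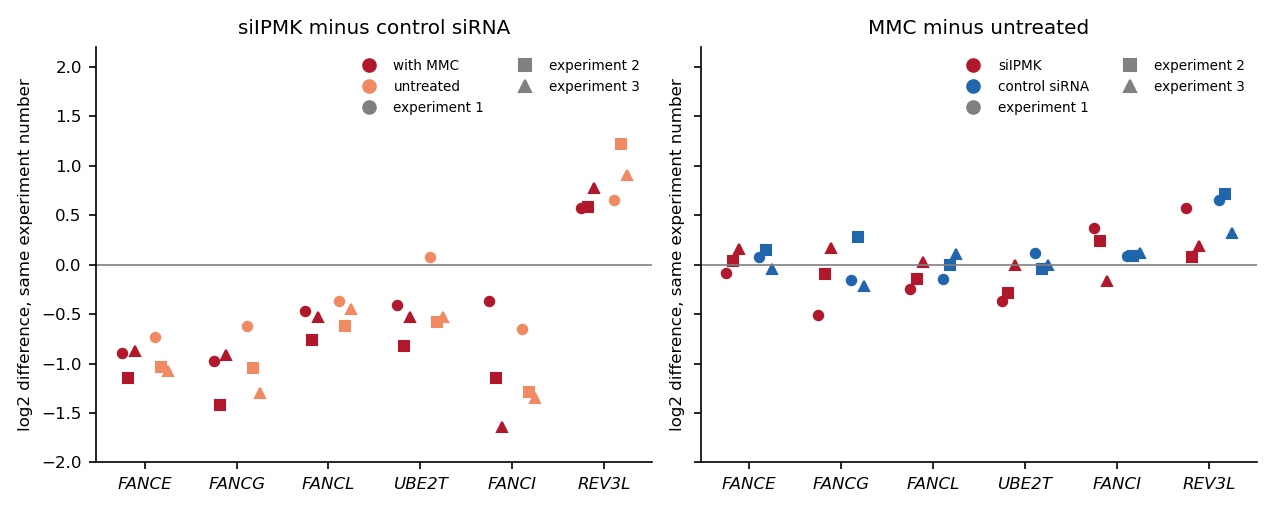
Log2 difference for each tested member between arrays that share an experiment number. The panels show siIPMK minus control cells, with MMC and untreated, and MMC minus untreated cells in each siRNA. Differences of siIPMK minus control cells are below 0 for FANCE, FANCG, FANCI and FANCL in every experiment. Those of REV3L are above 0 in every experiment, and UBE2T is at 0.08 in untreated experiment 1.

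FANCC, a core complex subunit that binds FANCE, gave a signal near the background. Its detected arrays were those of untreated control cells in experiments 1 and 3. It averaged 5.97 ± 0.28 log2 units in siIPMK cells with MMC, 6.002 ± 0.09 in untreated siIPMK cells, 6.20 ± 0.18 in control cells with MMC and 6.59 ± 0.13 in untreated control cells (SD, n = 3 each). FANCC was not well above background on any siIPMK array or on any control array with MMC. With 1 of the 3 untreated control arrays also not detected, no fold is given for it.

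A list of 42 other Fanconi and crosslink repair genes had 32 genes with 47 tested probes. Untreated, 21 probes of 16 genes fell in siIPMK cells, 1 probe rose and 25 did not pass. Beside them, 19.2% of all probes passed as falls and 19.7% as rises. The median of the list was -0.28, against -0.01 over all probes. With MMC, 20 probes of 16 genes fell, 1 rose and 26 did not pass, with a median of -0.34. The shares of all probes were then 20.3% as falls and 19.7% as rises. The counts depended on the scaling: with median scaling over all probes 8 fell and 3 rose untreated, and 11 fell and 1 rose with MMC. That scaling called 35.8% of all probes untreated and 36.1% with MMC, in either direction. Without experiment 1 in both siIPMK groups 25 fell and 2 rose untreated, and 27 fell and 3 rose with MMC, beside 52.2% of all probes called in each. In the MMC comparisons and their difference 0 of these probes passed by limma's test without a replicate block. Of all probes, 1.74% passed for MMC in control cells, 0.311% in siIPMK cells and 0.00723% for the difference. With the pairs as a replicate block 3 rose and 1 fell with MMC in control cells, and 0 rose and 2 fell in siIPMK cells. That block also called more of all probes in both siRNAs.

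Among partners of the core complex, FANCB, a subunit that joins FANCL, fell on its brighter probe by 0.48 ± 0.16 untreated (adjusted p = 0.0273) and by 0.59 ± 0.16 with MMC (0.00868). FAAP100, which binds both, fell by 0.38 ± 0.14 untreated (0.0468) and by 0.39 ± 0.14 with MMC (0.0379). The 2 probes of FAAP20, which links the complex to damaged chromatin, changed by 0.07 and 0.11 untreated and did not pass, and FAAP24, a DNA-binding subunit, changed by 0.18 untreated and did not pass. At the ubiquitin step, USP1, the enzyme that removes ubiquitin from FANCI and FANCD2, had the largest fall of the list. Its probe ILMN_1737254 fell by 1.75 ± 0.26 untreated (adjusted p = 0.000215) and by 1.86 ± 0.26 with MMC (0.000176). Its other probe fell by 0.74 ± 0.18 untreated (0.00479) and by 0.54 ± 0.18 with MMC (0.0268). WDR48, the activator of USP1, changed by 0.09 untreated and by -0.26 with MMC and passed in neither (adjusted p = 0.569 and 0.0878).

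RMI2, a subunit of the BLM complex that dissolves joined DNA molecules, fell by 1.12 ± 0.25 untreated (adjusted p = 0.00295) and by 1.40 ± 0.25 with MMC (0.000706). BRCA1, a recombination factor, fell on probe ILMN_2311089 by 0.85 ± 0.17 untreated (0.00145) and by 0.93 ± 0.17 with MMC (0.000829), and its other probe fell by 0.91 ± 0.17 with MMC (0.000908). EME1, the partner of the nuclease MUS81, fell by 0.85 ± 0.20 with MMC (0.0041). The probe ILMN_2272708 of SLX1A, a nuclease subunit with the near-identical copy SLX1B that may share its signal, fell by 0.78 ± 0.21 untreated (0.0102), with 3 of 3 control arrays but 1 of 3 siIPMK arrays detected, so the size of its fall is uncertain. The probes of ERCC1, a subunit of the nuclease that unhooks crosslinks, did not move alike. ERCC1 had 4 listed probes, and only those among the largest changes of the list are given here. Probe ILMN_1797172 fell by 0.88 ± 0.17 untreated (0.00136), whereas ILMN_1652369 was the only rise of the list. That probe averaged 6.58 ± 0.26 log2 units in untreated siIPMK cells and 5.57 ± 0.25 in untreated control cells, and was not well above background on any control array, so it was at least 1.02-fold higher untreated (adjusted p = 0.00369) and at least 1.24-fold higher with MMC (0.00216).

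Among the partners of REV3L, MAD2L2, the other core subunit of polymerase zeta, fell by 0.43 ± 0.16 untreated (adjusted p = 0.0413) and changed by -0.38 ± 0.16 with MMC (0.0681). The 2 probes of REV1, the scaffold that brings polymerase zeta to damage, changed by 0.06 and 0.08 untreated and did not pass (adjusted p = 0.759 and 0.643). POLH, another bypass polymerase, changed by -0.21 untreated and -0.23 with MMC and did not pass (adjusted p = 0.334 and 0.286). Of REV3L, MAD2L2, REV1 and POLH, only REV3L rose in either depletion comparison.

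**Figure D5:**
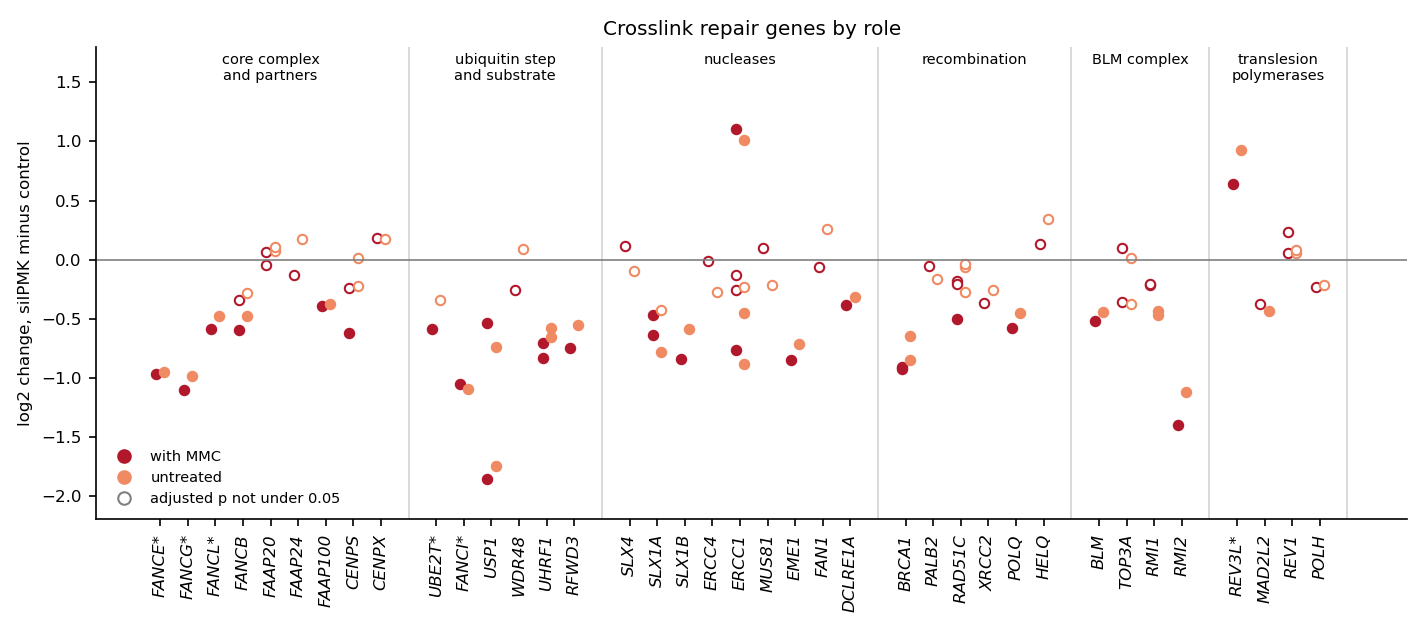
Log2 change of siIPMK over control cells for tested probes of the members and of the other Fanconi and crosslink repair genes, grouped by role, with MMC and untreated, with members starred and open points for probes that did not pass. The lowest point is USP1 at -1.75 untreated and -1.86 with MMC, and the highest are ERCC1 probe ILMN_1652369, whose control arrays are not well above background, and REV3L.

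Most probes of cell cycle genes were also lower in siIPMK cells, unlike that of REV3L. Of all 13830 probes, 19.2% passed as falls and 19.7% as rises untreated. With MMC these shares were 20.3% and 19.7%. Of 41 tested probes of 30 S phase genes, 34 fell and 0 rose in siIPMK cells untreated, with a median of -0.70, and 38 fell and 0 rose with MMC, with a median of -0.84. Their summed linear signal ranged from 59574.7 to 75458.4 in siIPMK cells with MMC, 66537.2 to 87484.3 in untreated siIPMK cells, 109920 to 113096 in control cells with MMC and 107368 to 111175 in untreated control cells. Of 45 probes of 30 G2 and mitosis genes, 34 fell and 0 rose untreated, with a median of -0.80, and 41 fell and 0 rose with MMC, with a median of -0.95. Their sum ranged from 39294.7 to 71043.8 in siIPMK cells with MMC, 46851.2 to 74635.7 in untreated siIPMK cells, 95825.6 to 100508 in control cells with MMC and 96232.7 to 99244.8 in untreated control cells. Both sums were lower on every siIPMK array than on every control array. Other lists moved too. Among 27 probes of p53 targets, 16 rose and 3 fell in siIPMK cells untreated, and 8 rose and 11 fell with MMC. Of 9 probes of epithelial markers, 6 rose and 0 fell untreated and 5 rose and 0 fell with MMC, of 2 probes of the macrophage marker CD68 1 rose in each, and of 3 probes of COL1A2 and PECAM1 1 rose in each. The summed signal of the CD68 probes ranged from 245 to 309 in siIPMK cells with MMC, 211 to 247 in untreated siIPMK cells, 112 to 177 in control cells with MMC and 189 to 212 in untreated control cells. Of 4 probes of the nuclear RNAs RPPH1, RN7SK and TUG1, 3 rose and 1 fell in each depletion comparison. The rises were those of RPPH1 and RN7SK, and the fall was that of TUG1. The medians over the 4 probes were 1.57 untreated and 1.48 with MMC, larger in size than the change of any tested member. RPPH1, the RNA of the nuclear enzyme RNase P, rose by 3.11 ± 0.14 untreated (adjusted p = 1.16e-08) and by 2.68 ± 0.14 with MMC (9.75e-08), and all 3 genes were detected on 12 arrays. The part of cell cycle genes, p53 targets, cell type markers or nuclear RNA in the members' differences was not tested.

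The profiles most like those of FANCI and REV3L were ranked by the root mean square difference of log2 levels, each probe centred on its own mean over the 12 arrays, among 12085 probes of other genes. For FANCI they were PIN4 at 0.10, VHL at 0.12 and TYW3 at 0.12. These genes changed by -1.16, -1.04 and -1.01 in siIPMK cells untreated and by -0.995, -1.09 and -1.10 with MMC, against -1.10 and -1.05 for FANCI. For REV3L they were GABARAPL1 at 0.14, BLOC1S2 at 0.15 and SRXN1 at 0.15. They changed by 0.995, 1.08 and 0.76 untreated and by 0.89, 0.71 and 0.70 with MMC, against 0.93 and 0.64 for REV3L. The step between the siIPMK and control arrays is part of this measure of likeness.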

How the data were processed

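The bead table holds mean intensities, detection p-values and bead numbers per probe and array, per the file headers, for 48802 probes. These deposited intensities showed no normalization between arrays. The authors' processed table holds log2-like values for 14853 probes. Its transform is not given in the sources used here, and the submitters' processing notes name lumi. In R 4.3.3, neqc of limma 3.58.1 fitted the background through the detection p-values and, after an offset of 16, applied quantile normalization and log2. Probes detected (p under 0.01) on at least 3 arrays were fitted with 4 group means over 12 arrays and a variance trend. Calls had a Benjamini-Hochberg adjusted p under 0.05 over 13830 probes. Errors of changes are standard errors; errors of group means are standard deviations.

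Of the tested probes, 12086 had a gene symbol in the platform annotation and 1744 were unnamed. Probes of the other repair genes were named as the 5 largest rises and falls past the threshold in each depletion comparison, and others by role, after their values were seen. The ranking of like profiles was also meant for FANCD2, which has no listed probe. Members and lists were chosen with earlier results of these data known. Same-numbered arrays of one siRNA deviated together in 6 of 6 pairs (r from 0.182 to 0.689 across probes), and across siRNAs r exceeded 0.1 in 4 of 12 pairs, so numbers were taken to pair arrays within a siRNA only. The fit was tested on simulated data. Alternatives covered scaling, background, the authors' values, filters, 1 probe per gene, the variance trend, blocks and left-out arrays.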

Additional observations from a re-analysis of the deposited data

How the results depend on the processing

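With 3 arrays per group, dim probes and small changes limit what could be called. Under 9 alternatives other than left-out arrays, FANCE, FANCG, FANCI and REV3L kept their direction and call in both depletion comparisons, with FANCE at -0.98 to -0.76 and FANCG at -1.07 to -0.90 untreated. Members called ranged from 4 to 6 untreated and were 6 with MMC. The share of all tested probes called ranged from 35.8% to 45.2% untreated and from 36.1% to 45.4% with MMC. Leaving out 1 array at a time gave 4 to 6 members and 3533 to 6203 probes untreated, 5 to 6 members and 3774 to 6551 probes with MMC, 155 to 344 probes for MMC in control cells, 15 to 37 for MMC in siIPMK cells and 0 to 8 for the difference between the MMC changes. Without experiment 1 in all groups these 3 MMC counts were 510, 57 and 32, and without it in both siIPMK groups 579 (with 1 member, REV3L), 18 and 17. With 1 probe per gene, 3790 and 3882 genes passed in the depletion comparisons, among 9409. Numbers were taken to pair arrays within a siRNA only. With the experiment number as a replicate block, 6246 and 6272 probes and 6 members each passed in the depletion comparisons. UBE2T untreated then had an adjusted p of 0.042, and 363 probes passed for MMC in control cells.

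The pairs within a siRNA as a replicate block gave 1235 probes and 1 member (REV3L) for MMC in control cells, against 241 and 0, 342 probes against 43 in siIPMK cells and 59 against 1 for the difference. Over experiments 2 and 3 only, chosen after seeing the data, this replicate block gave 1244 probes and 1 member, 238 probes and 137 probes; it changed no other call on the members. Requiring detection on 12 arrays gave 158 probes for MMC in control cells and 18 in siIPMK cells. Median scaling over all probes, also chosen after seeing the data, gave 17 in siIPMK cells and 0 for the difference. The difference gave 2 probes without background correction and 2 with the authors' values, and 0 with 1 probe per gene and 0 without the variance trend. The cause of these changes was not tested.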
